A study of Rattus norvegicus with 2 samples.

Results

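The genes of the rat major histocompatibility complex, named RT1, were examined in the hypothalamus before and after the onset of puberty. A gene was included if its name in the authors' comparison table began with RT1- and its transcripts were listed in the mRNA table. The rule gave 36 genes with 47 transcripts, of 22777 mRNA genes with 26324 transcripts. By name, 27 were class I genes and 9 were class II genes. The hypothalami came from female Sprague Dawley rats at 2 stages, prepubertal (postnatal day 25) and pubertal (postnatal day 35, first estrus). The methods gave 3 rats per stage, but the table holds a single column for each stage, and the way the animals were combined was not given in the sources used here. Each stage was therefore 1 library, and no difference between the stages had a replicate check. The hypothalamic label was met by the neuropeptide mRNA Pmch, at 1675 FPKM before and 2723 FPKM at puberty.

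RT1 is the rat counterpart of human HLA and mouse H2. Class I heavy chains pair with beta-2-microglobulin and hold peptides made by the proteasome, which the TAP transporter carries into the endoplasmic reticulum, and the complex is shown at the cell surface to CD8 T cells and natural killer cells. Class II alpha and beta chains pair with each other, travel with the invariant chain Cd74, and hold peptides from endosomes after the DM heterodimer has exchanged them. In brain, class I is made by endothelium, glia and some neurons, whereas class II is made mainly by a few macrophages and activated microglia. Interferons raise class I and its loading machinery in many cell types.

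FPKM, the authors' measure of fragments divided by transcript length and by library size, is corrected for length and depth, so levels of different genes can be compared. Differences are given as log2((pubertal FPKM + 1)/(prepubertal FPKM + 1)), which understates the change of low genes. The spacing of the FPKM values implied a depth of 20767900 fragments for the prepubertal library and 16210200 for the pubertal one. One fragment on a transcript of 1100 nt was then worth 0.0571 FPKM before and 0.0727 FPKM at puberty. Fold intervals below are 95% Clopper-Pearson intervals of the pubertal over prepubertal FPKM and cover counting error only. In bulk RNA of this kind, fewer cells of a type and less RNA per cell cannot be told apart.

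The class I genes were higher at puberty as a group, and the class II genes were not. Of the 27 class I genes, 16 reached an FPKM of 1 in at least 1 library, and each of the 16 was higher in the pubertal library. Fragments may be shared among these copies, as described below, so their directions need not be independent. Of the 9 class II genes, 4 reached an FPKM of 1, of which 2 were higher and 2 lower. RT1-CE2 reached this level only at puberty and RT1-Da only before it, so the direction of these genes was set by the minimum. Over all levels, 18 class I genes were higher and 4 lower, and 3 class II genes were higher and 4 lower, against 38.9% higher and 40.4% lower of the 22777 mRNA genes. Among the 14029 mRNA genes with an FPKM of at least 1, 48.9% were higher and 51.1% lower. The median log2 difference of the 16 class I genes was 0.63, with a range from 0.18 to 1.22. That of the 4 class II genes was -0.06, with a range from -0.33 to 0.41, and that of all 14029 genes was -0.01. The FPKM summed over all class I genes was 83.0 before and 143 at puberty (1.73-fold, log2 0.79). The class II sum was 19.0 before and 18.7 at puberty (log2 -0.02). The class II sum changed sign when the libraries were brought to equal medians (log2 0.05) or equal Actb (log2 0.39). Both scalings raise the pubertal values, so neither could turn a gene that was already higher.

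**Figure D1:**
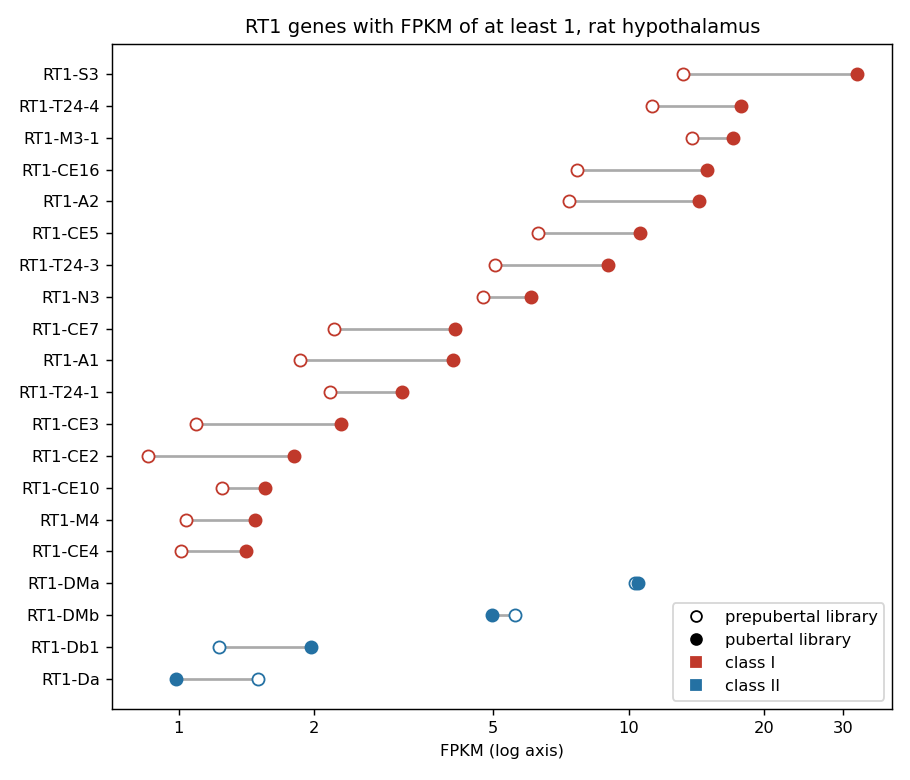
FPKM (log axis) of the 20 RT1 genes with an FPKM of at least 1 in 1 library, open circles for the prepubertal and filled circles for the pubertal library, class I in red and class II in blue. Each of the 16 class I genes has its filled circle to the right, while RT1-DMb and RT1-Da of class II have it to the left.

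A change of 2-fold in FPKM + 1 was reached by 1 class I gene, RT1-S3, against 0.499% of the 14029 genes (70 genes) that were at least 2-fold higher. A 1.5-fold higher FPKM + 1 was reached by 10 of the 16 class I genes, RT1-CE2 included, and by 0 of the 4 class II genes, against 2% of the 14029 genes. No RT1 gene was 2-fold lower, against 0.606% of those genes. These counts of RT1 genes depended on the setting, with 4 of 36 higher and 3 lower at a pseudocount of 0.1 (2.41% and 2.81% of the 22777 genes) and 7 higher with equal Actb (0.975% of the 22777 genes). Over all 22777 genes the share at least 2-fold higher was 0.307%, the share at least 1.5-fold higher was 1.43% and the share at least 2-fold lower was 0.373%. The difference varied with transcript length among genes with an FPKM of at least 1. Genes whose longest transcript was at least 1000 nt and under 2000 nt (4786 genes) had a median of 0.04 with 58% higher, and those of at least 2000 nt (7073 genes) had a median of -0.06 with 39.3% higher. The 16 class I genes were 1026 to 1810 nt and the 4 class II genes 1087 to 1292 nt, so all 20 lay in the first of these length groups, in which 2.05% were at least 1.5-fold higher.

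**Figure D2:**
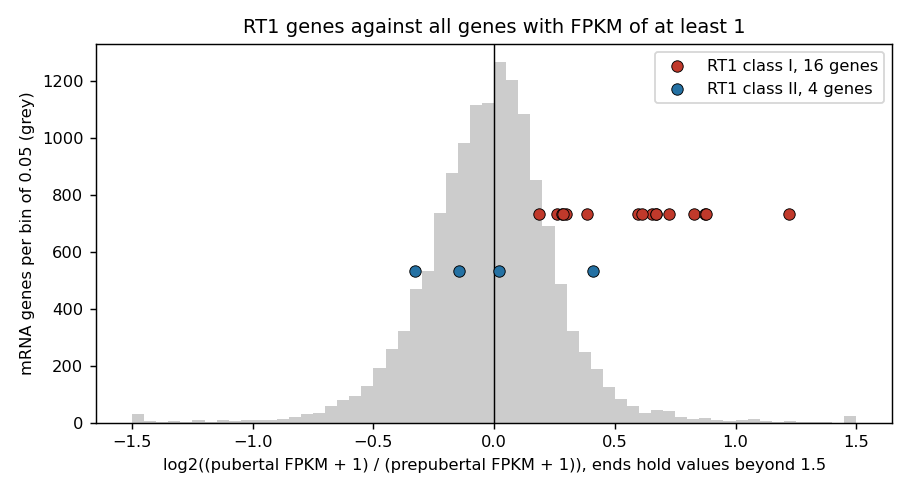
Histogram of the log2 difference (x axis) of the 14029 mRNA genes with an FPKM of at least 1 (grey, genes per bin on the y axis), with the 16 class I genes in red and the 4 class II genes in blue, whose height carries no value. The class I points run from 0.18 to 1.22 and the class II points from -0.33 to 0.41.

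RT1-A genes encode the classical class I molecules that present peptides to CD8 T cells. RT1-A2 (ENSRNOG00000030712) was at 7.37 FPKM before and 14.3 FPKM at puberty (log2 0.87; fold interval 1.63 to 2.34). RT1-A1 (ENSRNOG00000038999) was lower in level, at 1.86 FPKM before and 4.07 FPKM at puberty (log2 0.83; fold interval 1.52 to 3.14). The split of fragments between these RT1-A genes is uncertain, and their summed FPKM was 9.23 before and 18.4 at puberty, a 1.996-fold ratio.

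The RT1-CE genes form a block of class I copies at another place of the complex, next to the class II genes. All 7 listed CE genes were higher in the pubertal library, and their summed FPKM was 20.4 before and 36.7 at puberty (1.80-fold). RT1-CE16 (ENSRNOG00000047706) was the most abundant, at 7.67 FPKM before and 14.9 FPKM at puberty (log2 0.88; fold interval 1.56 to 2.45). RT1-CE5 followed with 6.28 FPKM before and 10.6 FPKM at puberty (log2 0.67; fold interval 1.38 to 2.07). RT1-CE7 was at 2.21 FPKM before and 4.12 FPKM at puberty (log2 0.67; fold interval 1.19 to 2.83). These 3 genes held most of the CE signal in both libraries. RT1-CE3 (1.09 FPKM before and 2.30 FPKM at puberty) and RT1-CE2 (0.853 and 1.80 FPKM) were low but had fold intervals above 1, from 1.15 to 4.06 and from 1.22 to 3.71. RT1-CE4 (1.01 FPKM before and 1.41 FPKM at puberty) and RT1-CE10 (1.24 and 1.55 FPKM) had intervals that included 1, from 0.710 to 2.84 and from 0.661 to 2.45. For RT1-CE4 (1.40-fold) and RT1-CE10 (1.25-fold) a difference of this size was not detectable at this depth.

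RT1-S3 and RT1-N3 belong to the nonclassical class I genes. RT1-S3 (ENSRNOG00000000777) was the class I gene with the highest pubertal level and the largest difference, at 13.2 FPKM before and 32.2 FPKM at puberty (log2 1.22; fold interval 2.08 to 2.86). It rested on 241.4 fragments before and 461.8 at puberty. Without RT1-S3 the log2 ratio of the class I sums was 0.67 in place of 0.79. RT1-N3 was at 4.75 FPKM before and 6.07 FPKM at puberty (log2 0.30; fold interval 1.01 to 1.61). Its number of fragments was 153.3 in each library, so its 1.28-fold ratio of FPKM was that of the implied depths.

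The T24 genes, a further nonclassical group, were all higher, with a summed FPKM of 18.5 before and 29.9 at puberty (1.62-fold). RT1-T24-4 was at 11.3 FPKM before and 17.8 FPKM at puberty (log2 0.61; fold interval 1.36 to 1.83). RT1-T24-3 was at 5.04 FPKM before and 8.99 FPKM at puberty (log2 0.73; fold interval 1.41 to 2.26). RT1-T24-1 was at 2.17 FPKM before and 3.14 FPKM at puberty, with an interval from 0.904 to 2.33 that included 1. The first and the second of these differed by more than counting error, and the third did not.

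RT1-M3-1 (ENSRNOG00000000763) is the rat counterpart of mouse H2-M3, which presents N-formylated peptides of bacteria and mitochondria. RT1-M3-1 had the highest prepubertal level of all RT1 genes, 13.8 FPKM, and was at 17.1 FPKM at puberty (log2 0.28; fold interval 1.05 to 1.45). It rested on 306 fragments before and 296 at puberty, so the fragments were slightly fewer and the FPKM higher in the shallower pubertal library. RT1-M4 was at 1.04 FPKM before and 1.47 FPKM at puberty, with an interval from 0.628 to 2.94. The other M genes were at or near 0. RT1-M2, RT1-M5, RT1-M6-2 and RT1-M1-5 had no fragment in either library, and RT1-M1-2, RT1-M1-4 and RT1-M10-1 had at most 5. The interval of RT1-M3-1 (upper end 1.45) lay below that of RT1-S3 (lower end 2.08).

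Of the class I genes below an FPKM of 1 in both libraries, RT1-T18 was at 0 as were the 4 M genes named above. The other 6 ranged up to 0.883 FPKM (RT1-S2 in the pubertal library, 4 fragments) and 0.703 FPKM (RT1-S2 in the prepubertal library, 4 fragments). RT1-N2 had 13 fragments before and 7 at puberty, and RT1-O1 had 1 before and 0 at puberty. Of these 6 genes 2 were higher and 4 lower, and the fold interval of each included 1.

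Among class II genes, the DM chains, which exchange peptides in the endosome and do not reach the surface as presenting molecules, were the most abundant. RT1-DMa (ENSRNOG00000047864) was at 10.3 FPKM before and 10.5 FPKM at puberty (log2 0.02; fold interval 0.809 to 1.27). RT1-DMb was at 5.60 FPKM before and 4.96 FPKM at puberty (log2 -0.15; fold interval 0.667 to 1.19), and its sign turned with equal Actb (log2 0.20). DM made up most of the class II signal, with a summed FPKM of 15.9 before and 15.4 at puberty.

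The presenting class II chains of the D and B types were near the lower limit. RT1-Da (ENSRNOG00000032844), the alpha chain of the D molecule, was at 1.496 FPKM before and 0.986 FPKM at puberty, from 29 and 15 fragments (fold interval 0.328 to 1.27). RT1-Db1, its beta chain, was at 1.23 FPKM before and 1.96 FPKM at puberty, from 23 and 27 fragments (fold interval 0.883 to 2.92). The alpha and beta chain of 1 molecule thus differed in opposite directions, each within its counting error. RT1-Db1 also had 2 transcripts, of which that of 1100 nt went from 0.798 to 1.96 FPKM and that of 1270 nt from 0.431 to 0 FPKM. RT1-Ba, the alpha chain of the B molecule, had 3 fragments before and 0 at puberty, and RT1-Db2 had 1 and 0. RT1-DOb, a chain of the DM inhibitor DO, had 1 and 3 fragments, and RT1-DOa and RT1-Ha were at 0 in both libraries.

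Near-identical copies limit the values of single RT1 genes. Because each FPKM value corresponds to a number of fragments, it can be asked whether that number is whole. Of the other mRNA genes with 1 listed transcript and up to 500 fragments, 90.5% were within 0.02 of a whole number before and 88.7% at puberty. Of the class I genes with 1 transcript, 6 of 15 were whole before and 5 of 12 at puberty. Among class II genes 4 of 6 and 3 of 4 were whole. Numbers that are not whole arise when a fragment that fits several transcripts is credited in part to each. RT1-A1 (50.58 and 86.74 fragments), RT1-A2 (200.4 and 305.8), RT1-CE7 (38.52 and 56.33) and RT1-S3 (241.4 and 461.8) were of this kind in both libraries. Of the 16 class I genes with an FPKM of at least 1, RT1-M3-1 was whole in both libraries, and its difference was among the smaller ones. RT1-Da was whole in both libraries too. Of the class I genes that were whole or 0 in both libraries and above 0 in 1, 3 were higher and 3 lower, and all of them other than RT1-M3-1 had at most 5 fragments. Which transcripts shared the fragments was not tested, so the split between RT1-A1 and RT1-A2, or among the CE genes, is uncertain. Genes that share fragments need not have independent directions, which limits the counts of class I genes that were higher. The sum over class I depends less on this split, at 1910 fragments before and 2556 at puberty, but genes of the complex without an RT1- name stayed outside it. Sprague Dawley rats are outbred and the reference genome is from another strain, and how RT1 alleles affected alignment was not tested.

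**Figure D3:**
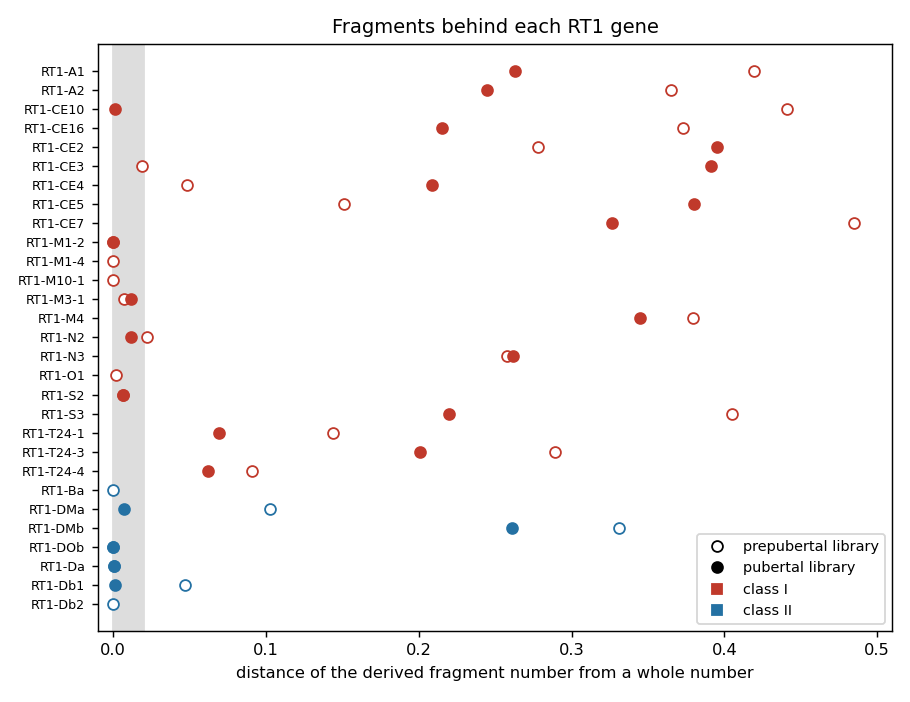
Distance of the derived fragment number of each detected RT1 gene from the nearest whole number (x axis), open circles for the prepubertal and filled circles for the pubertal library, with the tolerance of 0.02 in grey. RT1-M3-1, RT1-Da and the genes of at most 5 fragments lie in the grey band in each library where they are above 0. The RT1-A, RT1-S3 and most CE genes lie outside it.

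The upstream sequences are printed to show the likeness among the RT1-A and RT1-CE genes and, for contrast, RT1-S3 and RT1-M3-1, which did not align with these genes over 150 bases. They lie outside the transcripts and do not show which fragments were shared. RefSeq (GRCr8) matched all 36 genes by symbol and gave an upstream window for 31. The class I windows below run 180 bases up to the start of the transcript, 5′ to 3′ on the strand of the gene, and capitals mark matches to the motifs named after them.
RT1-A2 (chr20:4872691-4872870, plus strand): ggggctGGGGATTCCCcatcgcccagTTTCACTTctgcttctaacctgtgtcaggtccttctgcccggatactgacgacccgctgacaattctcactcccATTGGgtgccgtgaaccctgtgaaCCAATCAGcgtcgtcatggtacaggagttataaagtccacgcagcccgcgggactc
RT1-A1 (chr20:4907029-4907208, plus strand): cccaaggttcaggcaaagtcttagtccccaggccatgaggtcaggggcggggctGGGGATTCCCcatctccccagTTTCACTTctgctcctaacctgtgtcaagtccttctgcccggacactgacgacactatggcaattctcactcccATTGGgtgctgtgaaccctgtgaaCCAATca
RT1-CE16 (chr20:3265444-3265623, minus strand): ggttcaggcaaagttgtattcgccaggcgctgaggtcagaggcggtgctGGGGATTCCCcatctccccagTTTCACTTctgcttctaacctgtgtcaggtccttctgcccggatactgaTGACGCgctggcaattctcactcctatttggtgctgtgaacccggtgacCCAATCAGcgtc
RT1-CE5 (chr20:3484091-3484270, minus strand): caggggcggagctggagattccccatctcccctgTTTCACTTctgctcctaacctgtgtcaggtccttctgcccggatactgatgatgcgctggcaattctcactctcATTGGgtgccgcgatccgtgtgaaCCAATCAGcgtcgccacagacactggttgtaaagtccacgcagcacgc
RT1-S3 (chr20:2675348-2675527, plus strand): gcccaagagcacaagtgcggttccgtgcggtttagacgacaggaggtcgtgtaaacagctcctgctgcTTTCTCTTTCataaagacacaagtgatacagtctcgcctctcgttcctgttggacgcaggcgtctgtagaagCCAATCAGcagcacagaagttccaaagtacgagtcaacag
RT1-M3-1 (chr20:1333367-1333546, minus strand): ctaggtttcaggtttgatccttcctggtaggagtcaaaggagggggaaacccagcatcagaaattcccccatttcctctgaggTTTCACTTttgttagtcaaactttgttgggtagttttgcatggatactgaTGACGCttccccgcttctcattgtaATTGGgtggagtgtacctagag

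The first run of capitals in RT1-A2, RT1-A1 and RT1-CE16 is a kappa B site, with the same bases in all 3 genes, and the run after it is the interferon regulatory factor core. Both strands of the 250 bases upstream were searched for each motif. This kappa B site was in 5 of 14 class I genes with an FPKM of at least 1 and a window (RT1-A1, RT1-A2, RT1-CE16, RT1-CE10 and RT1-CE4), against 0.102% of 33469 promoters. A second kappa B sequence searched was in 0 of the 14 and in 0.0956% of all promoters. AANNGAAA, the core bound by interferon regulatory factors and seen here as TTTCACTT on the opposite strand, was in 13 of the 14 against 23.3% of all promoters. Over all 23 class I genes with a window, 16 held AANNGAAA. This core was added to the search after the sequences had been seen. The interferon response element, which contains the core and is the first run of capitals in RT1-S3, was in RT1-S3 and RT1-N3, 2 of the 14, against 3.41%. TGACGC, an X2 box, was in 2 of the 14 (RT1-M3-1 and RT1-CE16) against 5.7%. RT1-M3-1 thus shared the core and the CCAAT box but had no such kappa B site in this window. Among the 8 RT1-A and RT1-CE genes with a window, 21 of 28 pairs aligned over at least 150 bases, at 81.8% to 91.1% identity (median 86.8%). Over the 17 RT1 genes with an FPKM of at least 1 and a window, 22 of 136 pairs did, so 1 such pair lay outside the A and CE genes. These letters are a description of the reference and not of bound sites.

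The class II windows are shown for their different layout, again with 180 bases and motif matches in capitals.
RT1-Da (chr20:4515235-4515414, plus strand): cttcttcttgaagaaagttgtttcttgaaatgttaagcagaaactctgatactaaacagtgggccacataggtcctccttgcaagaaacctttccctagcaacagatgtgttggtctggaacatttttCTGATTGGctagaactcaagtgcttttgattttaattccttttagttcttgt
RT1-Db1 (chr20:4560163-4560342, minus strand): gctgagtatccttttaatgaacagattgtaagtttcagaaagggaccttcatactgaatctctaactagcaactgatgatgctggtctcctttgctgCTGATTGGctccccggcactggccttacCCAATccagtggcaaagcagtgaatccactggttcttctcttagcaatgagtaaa
RT1-DMa (chr20:4712336-4712515, minus strand): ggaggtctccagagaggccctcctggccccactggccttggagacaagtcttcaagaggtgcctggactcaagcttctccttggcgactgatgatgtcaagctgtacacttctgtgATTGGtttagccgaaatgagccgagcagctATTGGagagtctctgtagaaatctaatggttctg

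CTGATTGG, the Y box of class II promoters, was in 6 of 8 class II genes with a window. They were RT1-Da, RT1-Db1, RT1-Db2, RT1-Ba, RT1-DOa and RT1-Ha. Of all 23 class I genes with a window 7 held CTGATTGG, against 3.19% of all promoters. Among genes with an FPKM of at least 1, CTGATTGG was in 2 of 3 class II and 5 of 14 class I genes. It contains the CCAAT box on the opposite strand. CCAAT was in all 8 class II and 16 of the 23 class I genes with a window, against 34% of all promoters. Among those with an FPKM of at least 1, CCAAT was in 3 of 3 class II and 12 of 14 class I genes. Both kappa B sequences, the interferon response element and TGACGC were in 0 of the 8, and AANNGAAA was in 1 of them, RT1-DOa. In the RefSeq order, the M genes came first, then RT1-T18 with the N, S and O genes, the T24 genes, the CE genes, the class II genes from RT1-Da to RT1-Ha, and last RT1-A2 and RT1-A1. The genes at least 1.5-fold higher therefore lay on either side of the class II genes, which were not. The other genes of the MHC region gave 32 higher and 23 lower of 55 gene identifiers (51 gene names), with a median of 0.03. Over all 22777 mRNA genes, 38.9% were higher, 40.4% lower and 0.307% at least 2-fold higher. Tap1, Tap2, Tapbp, Psmb8, Psmb9 and Aif1 are also counted in lists below. Of the genes of the MHC region, Psmb8 was at least 2-fold higher, Rnf5 had the largest fall (19.9 FPKM before and 12.8 FPKM at puberty) and Rps18 the highest level (919 and 1173 FPKM).

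The genes that load class I had a lower median difference than the class I genes, with no test of this. Over all levels the medians were 0.10 and 0.28, and with an FPKM of at least 1 they were 0.18 and 0.63. Medians of the lists here and below are over all levels. Beside their counts, 38.9% of the 22777 mRNA genes were higher and 40.4% lower. At least 2-fold higher were 0.307% and at least 2-fold lower 0.373%. Of 11 loading genes (Tap2 was listed under 2 gene identifiers), 7 were higher and 4 lower, with a median of 0.10. B2m, the partner chain of every class I heavy chain, was at 174 FPKM before and 231.3 FPKM at puberty (log2 0.41). Tapbpl, a tapasin relative that edits peptides, had the largest rise of the list, from 5.56 to 7.89 FPKM (log2 0.44). Pdia3, the disulfide isomerase of the loading complex, had the largest fall, from 63.1 to 49.1 FPKM (log2 -0.36), and the chaperone Calr was the most abundant, at 246 and 245 FPKM. Tap1 was at 1.92 FPKM before and 2.13 FPKM at puberty, and Nlrc5, the class I transactivator, at 0.264 and 0.270 FPKM. All 5 immunoproteasome genes were higher, with a median of 0.35. Psmb8, a catalytic subunit that replaces a standard one, was at 3.77 FPKM before and 8.72 FPKM at puberty (log2 1.03), Psmb9 was at 3.59 and 4.01 FPKM, the smallest difference, and the activator Psme1 was highest at 57.4 and 79.9 FPKM.

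The partners of class II gave 5 higher and 4 lower of 9, with a median of 0.06. Cd74, the invariant chain, was at 2.80 FPKM before and 3.07 FPKM at puberty, and Ciita, the class II transactivator, had 3 fragments before and 0 at puberty. Ctss, which trims the invariant chain, had the largest rise, from 111 to 153 FPKM, Rfxap the largest fall, from 24.2 to 20.02 FPKM, and Ctsl the highest level, 195 and 186 FPKM. Low Cd74 and Ciita stood beside low RT1-Da and RT1-Db1 in both libraries.

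Genes of interferon signalling and genes induced by interferon gave 24 higher and 12 lower of 36, against 38.9% and 40.4% of the 22777 mRNA genes. Their median was 0.26. At least 2-fold higher were Ifit1 (0.808 FPKM before and 7.14 FPKM at puberty), Ifit3 (0.622 and 3.21 FPKM) and Irf7 (2.72 and 7.55 FPKM), against 0.307% of the 22777 mRNA genes. Ifngr1, a chain of the interferon gamma receptor, had the largest fall, from 21.8 to 14.97 FPKM, and Ifi27 the highest level, 126 and 202 FPKM. Among the other members, Usp18 (log2 0.94), Isg15 (log2 0.91) and Oas1a (log2 0.64) were higher. The 12 lower members included the signalling genes Ifnar1, Ifnar2 (log2 -0.26), Ifngr1, Ifngr2, Jak1, Tyk2 (log2 -0.24), Stat2 (log2 -0.04), Irf2 and Irf3. The rest of the 12 were the induced genes Mx1 (log2 -0.05), Ddx58 (log2 -0.15) and Oas2 (log2 -0.17), so most of the falls were of signalling genes. Other than Ifngr1, these genes were named after their values were seen.

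Markers of cells that carry class I or class II were set beside these values. Over all 22777 mRNA genes, 38.9% were higher and 40.4% lower. Of 15 microglial markers 13 were higher and 1 lower, with a median of 0.21 and a summed level of 361 FPKM before and 428 FPKM at puberty. Trem2 was at 5.72 and 9.33 FPKM, Sall1 at 2.97 and 2.68 FPKM, C1qa was highest at 80.4 and 95.4 FPKM, and Siglech was at 0. The summed level of microglial markers was thus 1.19-fold higher and that of class I 1.73-fold higher. Of 10 endothelial markers 3 were higher and 7 lower (median -0.13, summed level 218 and 213 FPKM), with Abcb1a at 11.0 and 13.9 FPKM, Kdr at 2.60 and 1.38 FPKM and Cldn5 highest at 70.9 and 65.5 FPKM. Of 4 perivascular macrophage markers 1 was higher and 3 lower (median -0.25, summed level 12.8 and 10.4 FPKM), with Cd163 at 1.76 and 1.83 FPKM, Lyve1 at 1.82 and 1.18 FPKM and Mrc1 highest at 4.78 and 3.67 FPKM. With equal Actb the medians of the endothelial (0.25) and macrophage (0.08) markers changed sign.

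T cell markers gave 2 higher and 5 lower of 8 (summed level 6.49 and 4.94 FPKM), with Cd4, which microglia also express in rats, highest at 3.68 and 2.64 FPKM, Lck at 1.93 and 1.78 FPKM and Cd8b at 0. B cell markers were near 0, with no marker above 0.105 FPKM (Pax5, prepubertal) and Cd79a at 0. Dendritic cell markers gave 3 higher and 2 lower of 5 (summed level 7.65 and 7.53 FPKM), with Flt3 at 5.42 and 5.69 FPKM and Zbtb46 at 2.02 and 1.53 FPKM. Red blood cell markers were higher, 6 of 6, with a summed level of 6839 and 13086 FPKM, and Hbb was at 2130 and 5898 FPKM. Markers of meninges and fibroblasts were lower, 7 of 7, with a median of -0.76. The part of these cell types in the class I difference was not tested.

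**Figure D4:**
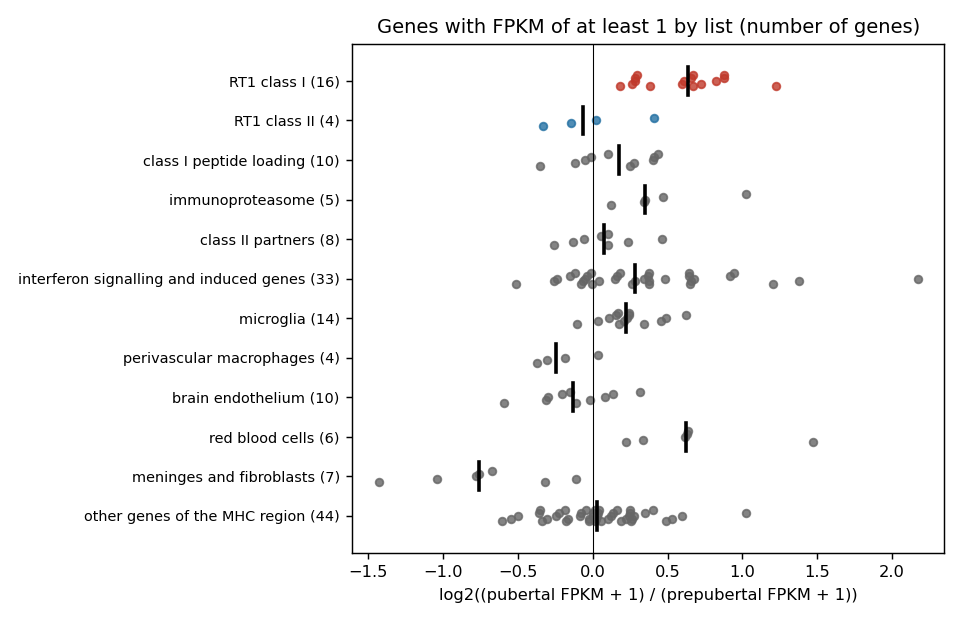
Log2 difference (x axis) of the genes with an FPKM of at least 1 in each list (1 point per gene, number of genes in parentheses, black bar at the median). RT1 class I has a median of 0.63 with each point above 0, and the genes of the MHC region other than RT1 lie around 0.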

How the data were processed

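Hypothalamic RNA of prepubertal and pubertal rats was depleted of ribosomal RNA and made into strand-specific libraries, which were sequenced as paired ends. Per the methods, TopHat aligned the reads, Scripture and Cufflinks served for assembly, and the authors obtained FPKM from Cuffdiff. The submitters' processing notes name Cuffdiff 2.1.1, Cufflinks 2.1.1 and the build Rnor_5.0, while the methods name an annotation of a later build, so no coordinates of the files were used. The deposited FPKM values were the unit of every value here. The authors' comparison table also holds fold changes, p-values and q-values, which were not used.

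FPKM was summed over the transcripts of each gene identifier. Class II genes were those named RT1-B, RT1-D, RT1-DM, RT1-DO and RT1-Ha, and class I genes all others. Genes of the complex without an RT1- name were not included. A pseudocount of 1 was used, and 2-fold in FPKM + 1 was the call. With 1 library per stage there was no test. For genes with 1 transcript, FPKM steps of 1 fragment over the transcript length less an offset were solved for each library (20767900 and 16210200 fragments, offsets of 258 and 252 nt). If Cuffdiff rescaled the libraries, these are rescaled totals. Fold intervals took the fragment numbers rounded to whole numbers.

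Named genes were all RT1 genes with an FPKM of at least 1 in 1 library and, of each gene list, genes changed at least 2-fold, the largest rise and fall among genes with an FPKM of at least 1, and the highest gene. B2m among the loading genes, Tap1, Nlrc5, Cd74, Ciita and further interferon genes were named outside this rule, after their values were seen. So were the RT1 genes below an FPKM of 1 and, at 0, the markers Siglech, Cd8b and Cd79a. The RT1 genes, lists, motifs and tests were chosen with earlier results of these data known. The planned comparison of RT1 proteins was not made, since protein sequences were not used here, and upstream sequences were compared in their place. Alternatives were a pseudocount of 0.1, an FPKM minimum of 1, equal medians, equal Actb, the top transcript, the comparison table's FPKM, and gene names in place of identifiers. Python 3.11.15, numpy 2.4.6, pandas 2.3.3, scipy 1.17.1, Biopython 1.88 and matplotlib 3.10.9 were used.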

Additional observations from a re-analysis of the deposited data

How the results depend on the processing

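Counts of 2-fold differences rested on the pseudocount. With 0.1 in place of 1, 4 RT1 genes were at least 2-fold higher and 3 lower, of which class I gave 3 and 2 and class II 1 and 1, against 2.41% and 2.81% of all 22777 genes. With equal Actb (pubertal FPKM multiplied by 1.32) 7 RT1 genes were at least 2-fold higher, all 7 of class I, against 0.975% of all genes, and with equal medians (multiplied by 1.05) the counts did not move. Among genes with an FPKM of at least 1, 2 RT1 genes were lower, 0 of class I and 2 of class II. Chosen after seeing the data, leaving out RT1-S3 left 0 RT1 genes and 0 class I genes at least 2-fold higher, and keeping only genes with whole fragments in both libraries left 4 higher (3 of class I, 1 of class II) against 6 lower (3 of class I, 3 of class II), and 0 at least 2-fold higher, for RT1 and for class I. Over that subset the log2 ratio of the class I sums was 0.25 and of the class II sums -0.48. The log2 ratio of the class I sums was 0.81 with the FPKM minimum, 0.85 with equal medians and 1.19 with equal Actb. That of class II turned to 0.05, 0.39 and 0.01 with equal medians, equal Actb and the top transcript. With equal Actb the T cell median turned to 0.03, and with the FPKM minimum the dendritic cell median turned to -0.10. With gene names in place of identifiers the median of the class I loading genes was 0.05 in place of 0.10 and that of the MHC region 0.02 in place of 0.03. The comparison table's FPKM changed no RT1 value. No paired analysis was possible because each stage had 1 library. Depth limits the genes of few fragments, and the spread between rats is unknown.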

Other observations

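Of 4052 lncRNAs, 2 shared words of at least 30 bases with the window of an RT1 gene, both on the strand opposite to the gene. For this search the window also took in bases past the start of the transcript, so the shared runs need not lie wholly upstream. The transcript TCONS_00293768 (1048 nt) shared an unbroken run of 189 bases with the window of RT1-CE15, which was not among the RT1 genes above, and was at 0.791 FPKM before and 0.697 FPKM at puberty (13 and 9 fragments). TCONS_00299699 (2715 nt) shared 168 bases with the window of RT1-O1 and was at 3.04 and 2.72 FPKM. No interval was computed for either difference.

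Hypothalamic neuropeptides gave 11 higher and 1 lower of 12, with a median of 0.34. Pmch had the highest level, Oxt had the largest rise, from 411 to 686 FPKM, and Avp was at 254 and 240 FPKM. In the choroid plexus list 4 were higher and 2 lower of 6, with Ttr highest at 29.0 and 23.0 FPKM, Aqp1 at 1.22 and 2.21 FPKM and Kcnj13 at 2.02 and 1.35 FPKM. In the list of meninges and fibroblasts, Col1a1 (9.57 and 2.93 FPKM) and Slc6a13 were at least 2-fold lower, Dcn was at 11.8 and 10.9 FPKM and Col1a2 was highest at 15.8 and 8.76 FPKM. Of the reference genes 6 were higher and 2 lower of 8, with Ppia highest at 2708 and 3124 FPKM, B2m the largest rise and Actb the largest fall, from 763 to 576 FPKM. Of the red blood cell genes Slc4a1 had the smallest difference, at 1.76 and 2.22 FPKM.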
